A study of Salmo trutta with 24 samples.

Results

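The ER-Golgi vesicle coat and cargo genes were examined in liver RNA of adult male brown trout. They were chosen by annotation, with earlier results of these data known. The rule took the transcripts whose database hit names coatomer, a transmembrane emp24 (p24) protein, SEC13, SEC22, SEC23, SEC24, SEC31, SAR1, an ADP-ribosylation factor (ARF), a trafficking protein particle (TRAPP) subunit, a mannose-binding lectin, KDEL or a golgin. This gave 97 genes of the 11587 annotated Ensembl identifiers in the deposited tables, carried by 317 of 66359 assembled transcripts (contigs). Of the 97 genes, 91 were listed in all 6 tables, and each table listed between 91 and 96.

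The fish were exposed in a flow-through system to 1.9, 18.1 or 34.4 ng/l of 17β-estradiol (E2, the main natural estrogen) or to 1.7, 15.3 or 225.9 µg/l of linuron (a urea herbicide with anti-androgenic activity in vertebrates), with 3 fish in each exposed group and 6 control fish in clean water. According to the methods the E2 values are concentrations measured in the water. The highest lay far below its nominal value, so the nominal step up to it was larger than the measured one. The livers were sequenced fish by fish. The length of exposure is 4 days in the methods and in the exposure label of every fish but 14 days in the protocol field. According to the methods each E2 concentration was held in 1 tank, so that tank and concentration cannot be told apart, and the control fish came from duplicate tanks that the labels do not tell apart. The number of tanks for linuron is not given in the sources used here, and a part of tank in the linuron differences was not tested.

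Proteins made at the rough endoplasmic reticulum (ER) leave it in vesicles coated with COPII, which the GTPase SAR1 assembles on the membrane from SEC23, SEC24, SEC13 and SEC31. Vesicles coated with COPI (coatomer), assembled by ARF GTPases, carry receptors and escaped ER proteins back from the Golgi. Members of the p24 family and the lectins LMAN1 and LMAN2 are cargo receptors, KDEL receptors retrieve ER chaperones, and TRAPP, golgins and SNAREs tether vesicles and fuse them. Hepatocytes export most plasma proteins by this route, and in egg-laying vertebrates under estrogen also the yolk precursor vitellogenin.

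Values are CPM (counts scaled to a common library size, with TMM normalization), and fold changes are log2 values of exposed over control fish from edgeR's quasi-likelihood test, with their standard error (SE). A gene was taken as differentially expressed at a Benjamini-Hochberg adjusted p-value under 0.05 over all annotated genes of the table. The libraries held 3894392 to 10736246 listed counts. The estrogen marker vtg1, encoding a vitellogenin, had 16830, 15800 and 18480 CPM in the 3 fish at 34.4 ng E2/l, against 0.36 to 4.08 CPM in control fish. CPM compares a gene between fish, and since contig lengths were not used, levels are not compared between genes. In RNA of a whole organ, fewer cells of a type and less RNA per cell cannot be told apart.

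At 34.4 ng E2/l, 3 of the 95 ER-Golgi genes listed were differentially expressed, and all 3 were higher than in control fish, while 3.46% of all 11053 genes were differentially expressed and 1.95% were higher. They were tmed5, kdelr3 and arl6ip1. None of the 95 genes was lower, against 1.5% of all genes. The median log2 fold change of the 95 genes was 0.22, and 70 of them (73.7%) lay above 0, whereas the median over all genes was -0.01 and 49.5% lay above 0. At an unadjusted p-value under 0.05, 12 ER-Golgi genes were higher and 4 were lower, and over all genes these shares were 8.21% and 9.38%.

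tmed5 (ENSDARG00000008765), a member of the p24 family of cargo receptors, showed the largest difference of the 95 genes. Its level was 83.7, 98.4 and 54.8 CPM in fish at 34.4 ng E2/l, against 6.20 to 12.9 CPM (median 11.2) in the 6 control fish. The 3 exposed fish were far above every control. The mean was 79.0 ± 22.2 CPM in exposed fish (SD, n = 3) and 10.1 ± 2.98 CPM in control fish (SD, n = 6), a ratio of 7.79, with a log2 fold change of 2.95 (SE 0.27, adjusted p = 3.14e-05). Both contigs annotated as tmed5 were higher, with log2 fold changes of 3.19 and 2.91. They share an assembly component with a contig annotated as an uncharacterized protein, so it is uncertain how reads were split among them.

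kdelr3 (ENSDARG00000040912), a KDEL receptor, had 43.2, 40.4 and 27.8 CPM at 34.4 ng E2/l, against 6.03 to 18.5 CPM (median 15.4) in control fish. No exposed fish overlapped with the controls. The log2 fold change was 1.48 (SE 0.33, adjusted p = 0.0285), and its 3 contigs had log2 fold changes of 1.24, 2.15 and 2.07. The call was lost without control replicate 5, without any 1 of the 3 exposed fish and in a model of all 7 groups, with adjusted p-values of up to 0.170.

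arl6ip1 (ENSDARG00000054578) entered the group through its annotation as an ADP-ribosylation factor-like interacting protein. In other vertebrates it is a membrane protein that shapes ER tubules and is not a GTPase. It had 219, 249 and 154 CPM at 34.4 ng E2/l, against 23.0 to 93.1 CPM (median 52.0) in control fish, again without overlap. The log2 fold change was 1.88 (SE 0.33, adjusted p = 0.00755). The difference lay in 1 of its 2 contigs, with a log2 fold change of 2.16 (SE 0.37), while the other had 0.21 (SE 0.26). Without exposed replicate 1 or 2 the call was lost, with adjusted p-values of up to 0.0548.

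At the lower E2 concentrations none of the ER-Golgi genes was differentially expressed in edgeR's quasi-likelihood test, as was also the case for all genes (0 of 10753 at 1.9 ng E2/l and 0 of 10886 at 18.1 ng E2/l). Unadjusted p-values under 0.05 were found for 2 ER-Golgi genes at 1.9 ng E2/l, both lower (2.46% of all genes were higher and 2.84% lower), and for 5 at 18.1 ng E2/l, 2 higher and 3 lower (1.47% and 1.26% of all genes). DESeq2's Wald test and edgeR's exact test called no ER-Golgi gene either. Over all genes DESeq2 called 0.0744% at 1.9 and 0.00919% at 18.1 ng E2/l, and the exact test 0% and 0.0184%. From the lowest to the highest E2 concentration, the log2 fold changes of tmed5 were -0.16 (SE 0.31), 0.68 (SE 0.27) and 2.95 (SE 0.27). At 18.1 ng E2/l the level of tmed5 was 13.6, 17.3 and 14.9 CPM, against 5.76 to 12.1 CPM in control fish, so that all 3 fish lay above the controls, an arrangement found for 0.818% of all genes in that comparison, and the adjusted p-value was 0.999. kdelr3 had log2 fold changes of 0.74 (SE 0.35), 0.33 (SE 0.47) and 1.48 (SE 0.33) at the 3 concentrations, and arl6ip1 had 0.09 (SE 0.34), -0.21 (SE 0.35) and 1.88 (SE 0.33).

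The difference between E2 concentrations was tested in a model of all 24 fish, over contigs listed in every table. Of 91 ER-Golgi genes, 2 were higher at 34.4 than at 18.1 ng E2/l, where 0.874% of 10302 genes differed and 0.505% were higher. These were tmed5, with a log2 fold change of 2.30 (SE 0.32), and arl6ip1, with 2.11 (SE 0.50, adjusted p = 0.0451). Against 1.9 ng E2/l, 2 of 91 genes were higher at 34.4 ng E2/l, where 1.49% of all genes differed and 0.951% were higher. These were tmed5, at 3.16 (SE 0.33), and arfgap1, which encodes a GTPase-activating protein of ARF1, at 1.12 (SE 0.28, adjusted p = 0.0447). The call of arl6ip1 was lost in all 6 fits that left out 1 fish of either group and that of arfgap1 in 5 of them, while tmed5 was called in each.

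**Figure D1:**
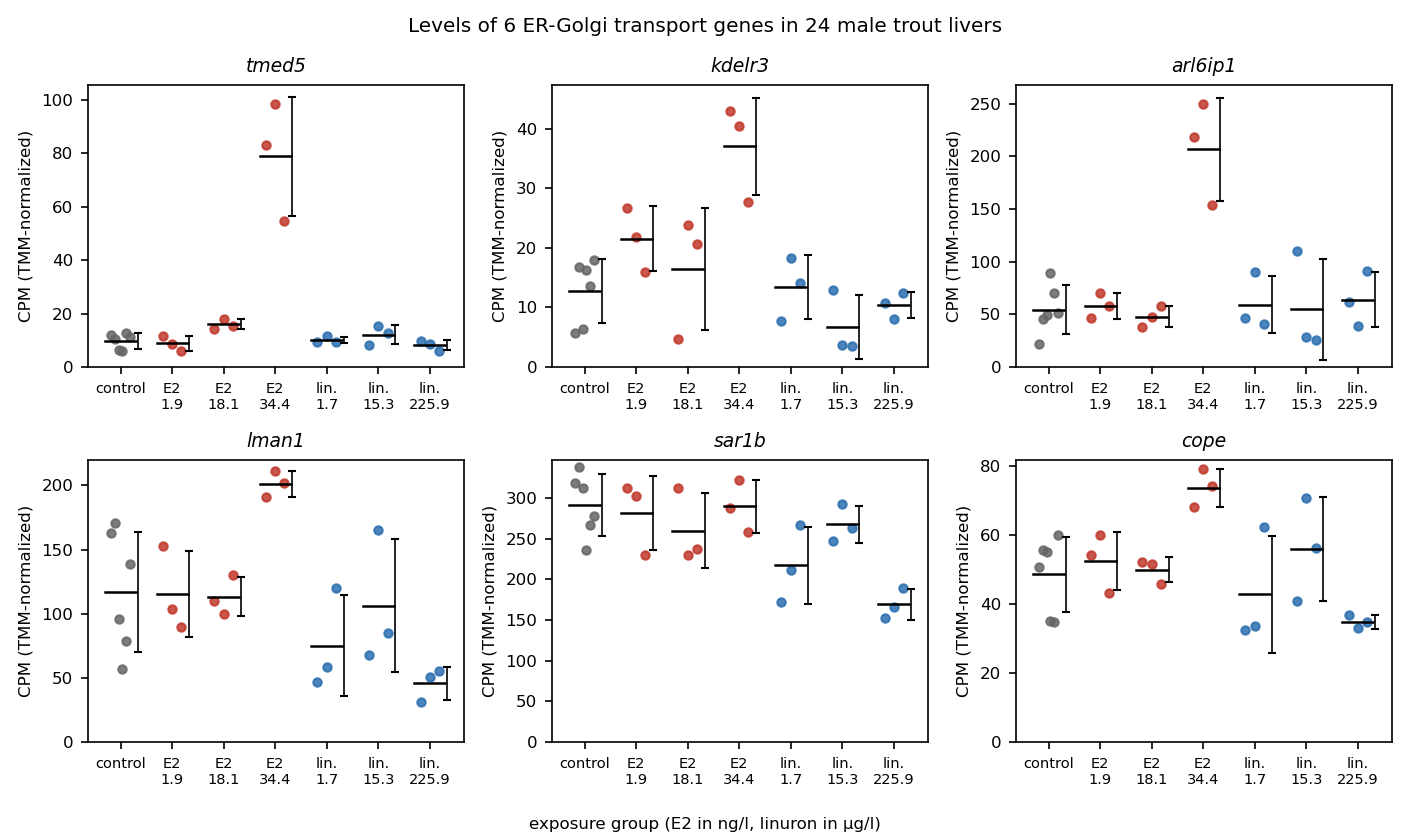
Levels of tmed5, kdelr3, arl6ip1, lman1, sar1b and cope in each of the 24 fish, in TMM-normalized CPM over contigs listed in every table (vertical axis from 0), by exposure group (horizontal axis, E2 in ng/l, linuron in µg/l). Each point is 1 fish, the horizontal line is the mean and the bar to its right is ± 1 SD. tmed5, kdelr3 and arl6ip1 stand above all other groups at 34.4 ng E2/l, whereas sar1b and lman1 are lowest at 225.9 µg linuron/l.

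Most of the remaining cargo receptors had a fold change above 0 at 34.4 ng E2/l, but none of them passed the test. kdelr2b, the other KDEL receptor, had 105, 107 and 124 CPM, against 58.6 to 106 CPM in control fish, and its log2 fold change of 0.42 (SE 0.20) gave an adjusted p of 0.300. The other entries of the KDEL group, kdelc1 and kdelc2, are KDEL-containing enzymes and not receptors, and both had fewer than 8 CPM in every fish. lman1, which carries coagulation factors and other glycoproteins out of the ER in mammals, had 192, 211 and 202 CPM, against 59.2 to 174 CPM (median 121) in control fish. Its 3 exposed fish lay above all controls, with a log2 fold change of 0.73 (SE 0.30) and an adjusted p of 0.220. All 4 lectins and 8 of the 10 p24 genes had a fold change above 0, with medians of 0.25 and 0.28. Among them only tmed5 passed the test. Contigs of the lectins lman2l and lman2lb share an assembly component, so these may not be separate genes. tmed2, which pairs with TMED10 in p24 complexes of mammals, had 184, 198 and 171 CPM, against 81.3 to 247 CPM in control fish, which overlapped fully.

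In the coats, no subunit passed the test at 34.4 ng E2/l. Of 6 COPI subunits 5 had a fold change above 0 (median 0.28), and of 10 COPII genes 7 had (median 0.30). cope (epsilon-COP) had 68.4, 79.1 and 74.3 CPM in exposed fish, all above the 35.5 to 62.3 CPM of the control fish, and a log2 fold change of 0.56 (SE 0.21, adjusted p = 0.189). sec23ip, an interaction partner of SEC23, had 37.8, 36.7 and 43.2 CPM, again above the 17.4 to 30 CPM of every control fish, with 0.65 (SE 0.21, adjusted p = 0.113). The cargo-selecting subunit sec24d had 99.4, 93.4 and 74.5 CPM, against 40.3 to 89.2 CPM, with 2 exposed fish above every control and 1 within their range. sec23a, an inner coat subunit, had 61.8, 55.8 and 52.7 CPM, just above the 29.9 to 52.5 CPM of the control fish. More contigs of sec23ip and sec23a were listed in this comparison than in any other, which bears on their sums. Over contigs listed in every comparison, sec23a had 56.1, 53.2 and 49.3 CPM, against 27.2 to 46.4 CPM. The outer coat genes sec31a and sec31b had log2 fold changes of 0.56 (SE 0.31) and 0.62 (SE 0.39), and sec24a had -0.20 (SE 0.20). For sec31a, too, more contigs were listed in this comparison than in any other. Over contigs listed in every comparison, sec31a had 14.85, 10.82 and 11.82 CPM, against 5.23 to 15.25 CPM in control fish. sar1b had 290, 322 and 258 CPM, within the 246 to 345 CPM of the control fish. copb2 (beta'-COP) and sec23b lay below 0, with log2 fold changes of -0.31 (SE 0.28) and -0.75 (SE 0.37), and neither passed the test.

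The SNARE, tether and ARF genes held no call beside arl6ip1. All 3 sec22 genes were above 0 (median 0.55), with sec22bb at 78.7, 70.4 and 64.0 CPM, against 44.8 to 71.8 CPM in control fish. sec22c had 3.51, 4.03 and 7.41 CPM, against 1.77 to 5.85 CPM, and the groups overlapped. Among ARF regulators, the arfgap1 entry with a mouse hit had 14.9, 13.4 and 13.1 CPM, all above the 6.12 to 10.9 CPM of the control fish (log2 fold change 0.60, SE 0.21, adjusted p = 0.143). golgb1 (giantin, a golgin anchored in the Golgi membrane) had 44.9, 41.0 and 48.4 CPM, above the 20.6 to 39.0 CPM of the control fish. Its log2 fold change was 0.64 (SE 0.21, adjusted p = 0.113). For golgb1, 12 contigs were listed in this comparison and 10 or 11 in the others, which bears on its sum. golga4 had 52.0, 50.5 and 66.4 CPM, against 36.6 to 53.3 CPM. The 14 TRAPP genes had a median of 0.06, and trappc3 had 137, 111 and 148 CPM, against 144 to 276 CPM in control fish, where 2 of the 3 exposed fish lay below all controls. The 1 contig of trappc3 shares its assembly component with 5 other identifiers, among them an apolipoprotein C-I like gene. How reads were split among them is uncertain. Of the 97 ER-Golgi genes, 18 share a component with another identifier. arf5, with 160, 183 and 184 CPM, stayed within the 106 to 203 CPM of the control fish. arf6b, a plasma membrane ARF, was the one gene of the 95 whose 3 exposed fish were all below the controls, with 7.01, 7.94 and 6.86 CPM against 10.4 to 17.0 CPM (log2 fold change -0.80, SE 0.23, adjusted p = 0.0764). Over all genes 5.17% had this arrangement, and 6.43% had all 3 exposed fish above the controls, as 11 of the 95 ER-Golgi genes did.

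The scaling of the libraries decided how many of these genes were called at 34.4 ng E2/l. With library totals in place of TMM, 14 ER-Golgi genes were called, all higher (5.61% of all genes were), but the median of all genes moved to 0.28 and 620 genes were called higher against 95 lower, compared with 216 and 166 under TMM. The ER-Golgi median exceeded that of all genes by 0.23 under either scaling.

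Cell type markers also differed at 34.4 ng E2/l. Of 12 hepatocyte markers 2 were lower (fgg and apobb, adjusted p = 0.0466 and 0.0219), the list having a median of -0.44 on the log2 scale and a summed level of 76700, 82340 and 73310 CPM in exposed fish, against 99060 to 133100 CPM in control fish. The hepatocyte markers did not all fall. Over contigs listed in every table, apob had 5784, 7118 and 5554 CPM in exposed fish, against 2615 to 4915 CPM in control fish. The markers alb, ttr, serpina1 and serpina1l stayed within the control range. For tfa the exposed fish had 1315, 1087 and 1202 CPM, against 1130 to 2088 CPM. In fga, fgb, fabp10a, ambp and apobb, as in fgg, each exposed fish lay below every control. For example, fgb had 8982, 10149 and 10144 CPM, against 11709 to 20408 CPM, and ambp had 4102, 4408 and 4200 CPM, against 4967 to 6172 CPM. Within the sum, fgg had 16293, 18999 and 15923 CPM, against 23881 to 40556 CPM. The summed level of the 7 leukocyte markers was 208 to 249 CPM in exposed fish, against 184 to 547 CPM in control fish, and csf1ra was lower (adjusted p = 0.0450). The 4 endothelial markers summed to 18.8 to 24.2 CPM, against 26.1 to 41.4 CPM, and the 6 fibroblast markers to 38.5 to 49.0 CPM, against 43.9 to 96.2 CPM, with no single call in either list. The part of these cell types in the ER-Golgi differences was not tested.

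**Figure D2:**
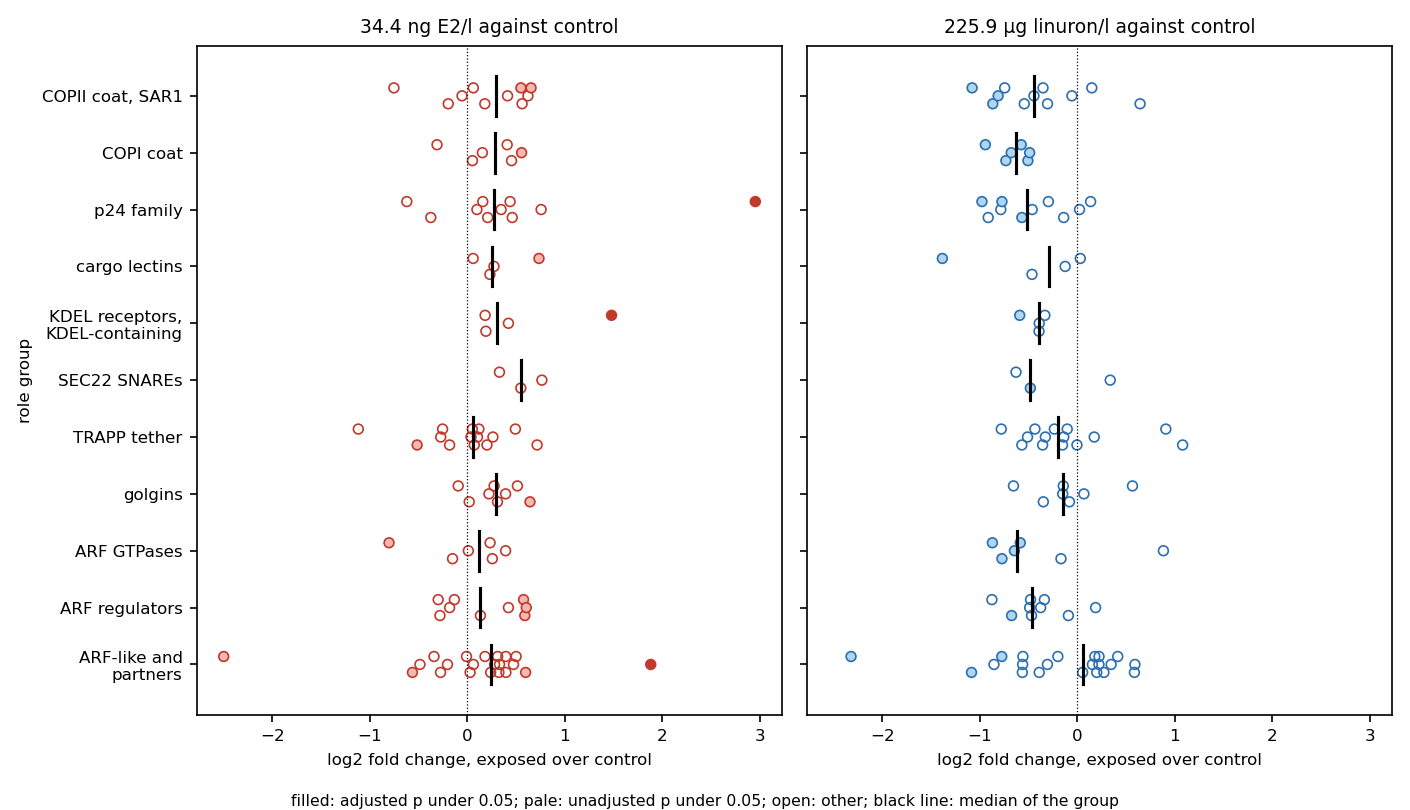
Log2 fold change (horizontal axis) of each ER-Golgi gene by role group (vertical axis) at 34.4 ng E2/l (left) and 225.9 µg linuron/l (right), each against the same 6 control fish. Filled points have an adjusted p under 0.05, pale points an unadjusted p under 0.05, open points neither, and black lines are group medians. The COPI coat has a median of 0.28 on the left and -0.63 on the right, where its 6 genes all lie below 0.

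At 225.9 µg linuron/l, 71 of the 95 ER-Golgi genes had a fold change below 0, but none passed the test. None of the 95 genes listed was called by edgeR's quasi-likelihood test, whereas 0.721% of all 10954 genes were, 0.183% lower and 0.539% higher. At an unadjusted p-value under 0.05, 23 ER-Golgi genes were lower and none was higher, while 6.69% of all genes were lower and 5.34% higher. Their median log2 fold change was -0.38, with 24 of 95 (25.3%) above 0, whereas the median over all genes was 0.00 and 49.7% lay above 0. The calls depended on the test: DESeq2's Wald test called 6 ER-Golgi genes (tmed2, arl4cb, copb2, sec13, sar1b and lman1), all lower, but over all genes it also called more, 1.94% lower and 1.57% higher. edgeR's exact test called lman1 alone, with 0.812% of all genes lower. Without control replicate 4, the quasi-likelihood test called tmed2, sar1b and lman1, with 0.584% of all genes lower.

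All 6 COPI genes had lower levels at an unadjusted p-value under 0.05, their log2 fold changes ranging from -0.94 to -0.49 around a median of -0.63. copb2 had 23.7, 23.6 and 32.4 CPM, against 29.6 to 73.6 CPM (median 47.4) in control fish. Its log2 fold change was -0.94 (SE 0.29, adjusted p = 0.198), and 2 of the 3 exposed fish were below all controls. copz1 (zeta-COP) had 11.4, 14.2 and 10.8 CPM, against 14.9 to 26.7 CPM, without overlap. The other COPI subunits, copa, copb1, cope and copg2, had log2 fold changes of -0.58 (SE 0.23), -0.68 (SE 0.29), -0.51 (SE 0.23) and -0.49 (SE 0.20).

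In the COPII coat 9 of 11 genes lay below 0. sar1b, the GTPase that starts COPII assembly, had 148, 164 and 185 CPM at 225.9 µg linuron/l, against 234 to 335 CPM (median 295) in control fish, and the groups did not overlap. Its log2 fold change was -0.81 (SE 0.19), with the lowest adjusted p of the ER-Golgi genes (0.0899). sec13 had 15.6, 19.6 and 21.1 CPM, against 23.8 to 48.9 CPM, likewise without overlap (log2 fold change -0.87, SE 0.27, adjusted p = 0.201). sec23b had 21.7, 40.7 and 23.9 CPM, within the 19.8 to 87.8 CPM of the control fish, and sec31a had 6.34, 6.14 and 6.54 CPM, against 5.77 to 17.5 CPM. The log2 fold changes of sec23a, sec24d, sec24a and sec31b lay between -0.54 and -0.31. The 2 COPII genes above 0 were sec24c, at 0.15 (SE 0.29), and sar1ab, at 0.64 (SE 0.87), which had at most 1.24 CPM in any exposed or control fish of this comparison.

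Among cargo receptors, lman1 had the lowest fold change. Its level was 30.4, 50.1 and 53.8 CPM, against 56.5 to 169 CPM (median 117) in control fish, a ratio of mean CPM of 0.384 without overlap. The log2 fold change of -1.38 (SE 0.36) gave an adjusted p of 0.116. tmed2 had 69.8, 84.6 and 88.0 CPM, against 77.5 to 236 CPM, where 1 exposed fish lay below all controls. tmed10 had 59.7, 92.0 and 65.3 CPM, against 87.3 to 172 CPM, and kdelr2b had 52.5, 60.2 and 47.6 CPM, against 55.9 to 102 CPM. tmed5 and kdelr3 had log2 fold changes of -0.30 (SE 0.30) and -0.33 (SE 0.36), and their exposed and control fish overlapped. Of the ARF GTPases, arf1, arf2, arf1l and arf5 were lower at an unadjusted p-value under 0.05. Contigs of arf2 and arf1l share an assembly component, so these may not be separate genes, and those of arf5 share components with 2 other identifiers. arf1 had 51.3, 57.2 and 63.3 CPM, all below the 69.4 to 106 CPM of the control fish.

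The ARF-like genes did not follow the coats as a group, with 11 of 21 above 0 and a median of 0.05. Within this group arl4cb had 9.98, 11.2 and 11.2 CPM, against 14.7 to 33.4 CPM (log2 fold change -1.09, SE 0.27, adjusted p = 0.0954). Altogether the 3 exposed fish lay below every control for 9 of the 95 ER-Golgi genes, whereas 3.05% of all genes had this arrangement, and for none of the 95 did they lie above every control (3.7% of all genes). The summed level of the listed ER-Golgi genes was 1831, 2039 and 1976 CPM at 225.9 µg linuron/l, against 2139 to 3342 CPM (median 2837) in control fish. At 34.4 ng E2/l it was 3532, 3644 and 3459 CPM, against 2253 to 3509 CPM (median 2950), where the exposed fish overlapped with the highest control. Over contigs listed in every table it was 3481, 3619 and 3416 CPM, against 2150 to 3326 CPM, without overlap.

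Some cell type markers also differed in some of these fish. The 3 exocrine pancreas markers summed to 0.00, 2.09 and 0.00 CPM at 225.9 µg linuron/l, against 0.00 to 24.6 CPM in control fish, and all 3 were lower at an unadjusted p-value under 0.05. They were also near 0 in other groups, each with at most 0.955 CPM at 18.1 ng E2/l and 0.83 CPM at 1.7 µg linuron/l. Of the 5 bile duct markers, krt18(2) had 718, 424 and 295 CPM, against 180 to 286 CPM, without overlap (adjusted p = 0.0927), and the other 4 had unadjusted p-values over 0.05. The 3 red cell markers summed to 433 to 1567 CPM, against 166 to 686 CPM, with only 1 exposed fish above the controls. Over contigs listed in every table, the red cell marker hbaa1 had 1243, 388 and 412 CPM, against 130 to 500 CPM. Of the 12 hepatocyte markers none was called and 2 were lower at an unadjusted p-value under 0.05. Over contigs listed in every table, each exposed fish lay below every control for apobb (7180, 9184 and 7682 CPM, against 9413 to 15953 CPM). fgb had 7607, 16594 and 8757 CPM, against 11709 to 20408 CPM. alb had 33544, 26574 and 31541 CPM, against 6036 to 30757 CPM. The median of the list was 0.11 on the log2 scale, and its summed level was 90160, 114200 and 90400 CPM, against 96110 to 129300 CPM. The part of these cells in the ER-Golgi differences was not tested.

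**Figure D3:**
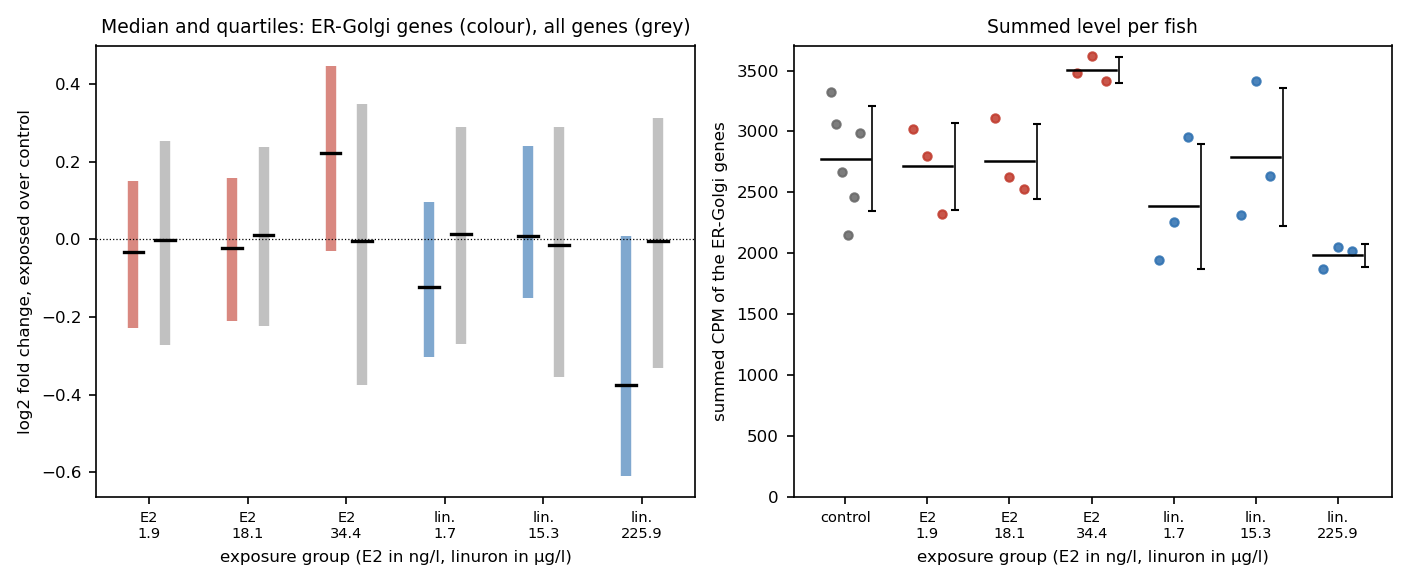
Left, median (black line) and quartiles (bars) of the log2 fold changes of the ER-Golgi genes (colour) and of all genes (grey) in each exposed group against the control fish. Right, summed CPM of the 91 ER-Golgi genes listed in every table, with 1 point per fish, the mean as a line and ± 1 SD as a bar. The medians of the ER-Golgi genes are 0.22 at 34.4 ng E2/l and -0.38 at 225.9 µg linuron/l, and lie between -0.12 and 0.01 in the other 4 groups.

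At 1.7 and 15.3 µg linuron/l no ER-Golgi gene was differentially expressed in edgeR's quasi-likelihood test, and no gene at all was (0 of 10930 and 0 of 10843). Unadjusted p-values under 0.05 were found for 1 ER-Golgi gene at 1.7 µg linuron/l, which was higher (3.57% of all genes were higher, 4.14% lower). At 15.3 µg linuron/l they were found for 1 higher and 2 lower ER-Golgi genes (3.19% and 2.88% of all genes). DESeq2's Wald test and edgeR's exact test called no ER-Golgi gene in either group. Over all genes DESeq2 called 1.06% at 1.7 and 0.0277% at 15.3 µg linuron/l, and the exact test 0.412% and 0.203%. The medians of the ER-Golgi genes were -0.12 and 0.01. With library totals in place of TMM, that at 1.7 µg linuron/l was 0.06, where the median of all genes was 0.17. Leaving out a fish moved these medians to between -0.30 and -0.00 at 1.7 µg linuron/l and between -0.13 and 0.10 at 15.3 µg linuron/l. sar1b had log2 fold changes of -0.44 (SE 0.21), -0.15 (SE 0.21) and -0.81 (SE 0.19) from the lowest to the highest linuron concentration, and lman1 had -0.66 (SE 0.39), -0.17 (SE 0.39) and -1.38 (SE 0.36). Neither gene followed the order of the concentrations, but the fish at 15.3 µg linuron/l differed widely among themselves. Over contigs listed in every table, their summed ER-Golgi level was 2316, 3416 and 2638 CPM. The hepatocyte marker alb had 36933, 3542 and 18335 CPM in the same fish.

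The highest E2 and linuron groups were then compared with each other, in the model of all 24 fish. Of 91 ER-Golgi genes, 11 were higher at 34.4 ng E2/l than at 225.9 µg linuron/l and none was lower, while 2.47% of 10302 genes were called, 1.54% higher and 0.922% lower. The median log2 fold change of the 91 genes was 0.54, with 75 (82.4%) above 0, whereas the median over all genes was -0.01. The 11 genes spanned most roles: the p24 genes tmed5 and tmed10, the lectin lman1, the KDEL receptor kdelr2b, the COPI subunits copa and cope, the SNARE sec22bb, the golgin golgb1, and the ARF GTPase-activating genes arfgap3 and both arfgap1 entries.

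In the fish at 34.4 ng E2/l lman1 had 191, 211 and 202 CPM, against 31.4, 50.9 and 55.1 CPM at 225.9 µg linuron/l, without overlap, a log2 fold change of 2.14 (SE 0.41, adjusted p = 0.00572). cope had 68.1, 79.1 and 74.1 CPM, against 36.9, 33 and 34.7 CPM, with 1.08 (SE 0.27, adjusted p = 0.0281). kdelr2b had 105, 107 and 123 CPM, against 54.2, 61.1 and 48.9 CPM, with 1.03 (SE 0.24, adjusted p = 0.0203). tmed5 had 83.3, 98.4 and 54.7 CPM, against 9.72, 8.75 and 5.98 CPM, with 3.27 (SE 0.33, adjusted p = 2.76e-06). For each of these genes the lowest fish at 34.4 ng E2/l was above the highest at 225.9 µg linuron/l. The remaining 7 had log2 fold changes between 0.83 (sec22bb) and 1.28 (arfgap3). Both arfgap1 entries come from 1 assembly component, annotated by a zebrafish and a mouse hit, and may not be separate genes.

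At an unadjusted p-value under 0.05, 37 of the 91 genes were higher at 34.4 ng E2/l and none was lower, with 8.51% and 6.93% over all genes. These included 5 of 6 COPI and 7 of 10 COPII genes, but no COPII gene passed the adjusted threshold. The count of 11 varied widely between fits, being 30 of 94 with the 6 fish of the 2 groups alone, 24 with DESeq2 and between 1 and 5 when any 1 of the 6 fish was left out. The share of all genes called varied too, with 8.29% for the 6 fish alone, 5.34% with DESeq2 and 0.893 to 1.96% with a fish left out. Among the bile duct markers krt18(2) was lower, with 189, 198 and 162 CPM at 34.4 ng E2/l, against 740, 430 and 303 CPM at 225.9 µg linuron/l (adjusted p = 0.0201), and its part was not tested. In the fits named above every ER-Golgi call was in the same direction, and tmed5 was called in each.

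**Figure D4:**
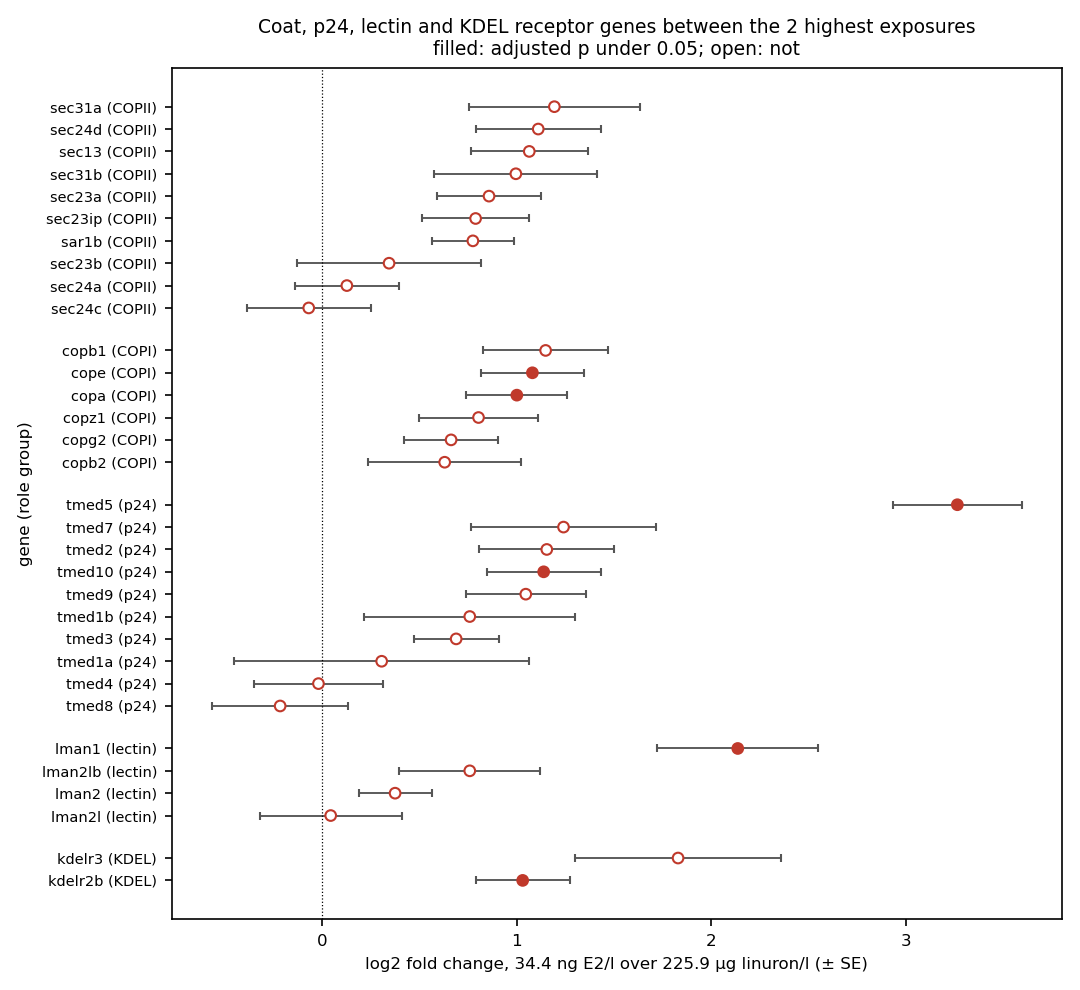
Log2 fold change between the highest exposures (34.4 ng E2/l over 225.9 µg linuron/l, horizontal axis) for coat, p24, lectin and KDEL receptor genes (vertical axis, by role), with ± 1 SE from the model of 24 fish and 3 fish per group. Filled points have an adjusted p under 0.05. All 6 COPI genes lie above 0, from 0.63 (copb2) to 1.15 (copb1), and tmed5 and lman1 lie farthest to the right, at 3.27 and 2.14.

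Other genes of the pathway, outside the annotation rule, were counted from a list of 56 ER-Golgi transport genes. At 34.4 ng E2/l, 2 of 56 were higher and 1 was lower, beside 1.95% and 1.5% of all genes, and 49 lay above 0 (87.5%, median 0.24), where 49.5% of all genes did. mcfd2, the soluble partner of LMAN1 in mammals, had 267, 325 and 271 CPM, against 78.6 to 177 CPM in control fish (log2 fold change 1.23, SE 0.24, adjusted p = 0.0130). preb, which encodes SEC12, the exchange factor that loads SAR1 with GTP, had 16.1, 14.8 and 19.7 CPM, against 7.98 to 10.1 CPM (0.90, SE 0.19, adjusted p = 0.0213). cog2, a subunit of the COG tether, was lower, with 41.3, 36.5 and 19.5 CPM, against 48.0 to 246 CPM (-2.0, SE 0.46, adjusted p = 0.0338). In none of the 3 did the groups overlap.

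At 225.9 µg linuron/l none of the 53 listed pathway genes passed the test (0.721% of all genes did), and 12 were lower and 1 higher at an unadjusted p-value under 0.05 (median -0.26), beside 6.69% and 5.34% of all genes. Between the highest exposures, mcfd2, uso1 (the tether p115) and zrab1ba (a RAB1 homologue) were higher at 34.4 ng E2/l than at 225.9 µg linuron/l among 52 genes, beside 1.54% of all genes. mcfd2 had 265, 325 and 270 CPM, against 37.2, 109 and 43.3 CPM, a log2 fold change of 2.18 (SE 0.41, adjusted p = 0.00379). The delta subunit of COPI, annotated as archain and thus missed by the rule, was looked up after the values of the coat were seen. Its copies arcn1a and arcn1b did not pass the test in any comparison. Over contigs listed in every table, arcn1a had 53.55, 53.06 and 55.69 CPM at 34.4 ng E2/l, within the 32.4 to 57.4 CPM of the control fish. At 225.9 µg linuron/l it had 28.57, 33.40 and 37.19 CPM, which overlapped with the control fish. arcn1b had at most 7.04 CPM in any fish.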

How the data were processed

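Liver RNA of 24 brown trout was sequenced. According to the labels and the methods, reads were assembled de novo with Trinity, mapped back with Bowtie2 2.1.0 keeping a single best hit, and counted per contig with SAMtools 0.1.18. Contigs were annotated by Blastx against Ensembl peptides, zebrafish first. The authors deposited 6 tables of unnormalized read counts, each with 3 exposed and the 6 control fish. Their columns of fold changes and p-values were not used.

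Counts were summed per Ensembl identifier, a gene needed a count of at least 1 in 3 fish, and library sizes were totals over all listed contigs (79.1 to 83.5% of counts were annotated). Every listed contig already had at least 1.027 CPM by library totals in 3 fish of its table. A contig could thus be listed through the 3 exposed fish alone. The table for 34.4 ng E2/l listed 8 contigs of sec23a, 9 of sec23ip, 10 of sec31a and 12 of golgb1. The other tables listed at most 7, 8, 9 and 11. Each exposed group was tested against the controls, within its table, by the quasi-likelihood test of edgeR 4.0.16 (R 4.3.3) with TMM scaling and Benjamini-Hochberg adjustment. Exposed groups were compared in a model of all 7 groups. The 6 comparisons share the same control fish. The alternatives were edgeR's exact test, DESeq2 1.42.0, library totals or DESeq2 size factors, a filter of 5 CPM, contigs as features and fits without each fish in turn. On counts simulated for 34.4 ng E2/l against control (11053 genes), the main test recovered 21 of 100 genes changed by 1 and 96 of 100 changed by 2 on the log2 scale, with 3 false calls. On the same counts DESeq2 recovered 56 and 99 of these genes, with 24 false calls, and the exact test 40 and 99, with 13. The changed genes were drawn from those with a mean over 10 CPM, so recovery at lower levels was not tested.

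The named genes were those past the adjusted threshold against controls, in each role the gene with the highest control CPM and that with the lowest p at 34.4 ng E2/l, the coat subunits and the KDEL receptors. Other genes were named after their values were seen. The members and lists were chosen with earlier results of these data known. No 2 fish of a group agreed within sampling noise. With 1 tank per E2 concentration and no tank number given for linuron, p-values measure the spread between these fish. Sequences and genome positions of the genes were not used here.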

Additional observations from a re-analysis of the deposited data

Results flagged for a closer look

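In the direct comparison of the highest exposures, 11 ER-Golgi genes differed between groups in the test of the difference itself. Over all genes 2.47% were called and 1.54% were higher, and the 11 fell to between 1 and 5 when any 1 fish of either group was left out. All 11 were higher at 34.4 ng E2/l than at 225.9 µg linuron/l, 2 of them being arfgap1 entries of 1 assembly component. Their log2 fold changes were 3.27 for tmed5, 2.14 for lman1, 1.28 for arfgap3, 1.14 for tmed10, 1.09 for the arfgap1 entry with a mouse hit, 1.08 for cope, 1.07 for arfgap1, 1.03 for kdelr2b, 1.02 for golgb1, 1.0 for copa and 0.83 for sec22bb.

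Between E2 concentrations, tmed5 differed with log2 fold changes of 2.30 for 34.4 over 18.1 ng E2/l and 3.16 for 34.4 over 1.9 ng E2/l. arl6ip1 differed by 2.11 for 34.4 over 18.1 ng E2/l, and arfgap1 by 1.12 for 34.4 over 1.9 ng E2/l. Over all genes 0.874% differed between 34.4 and 18.1 ng E2/l and 1.49% between 34.4 and 1.9 ng E2/l. The call of arl6ip1 was lost in every fit that left out a fish of either group, and that of arfgap1 in most of them.

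For sec22c, 1 control fish stood apart from the other 5 with 5.85 CPM, its gap to the nearest fish being 0.712 of the range. Chance gives such a fish in about 1 in 20 groups.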

How the results depend on the processing

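The share of all genes called stands in parentheses. No alternative reversed the direction of a called gene. At 34.4 ng E2/l against control, the 3 calls became 5 with DESeq2 (8.02%), 3 of them higher, 14 with library totals (6.47%), 5 with each contig as a feature (3.07%) and 1 to 4 when a fish was left out (0.797 to 5.03%). At 225.9 µg linuron/l against control, 0 calls became 6 with DESeq2 (3.51%), 1 with the exact test (1.85%), 1 in the model of 7 groups (0.99%) and 0 to 3 when a fish was left out (0.137 to 1.46%). For 34.4 ng E2/l over 225.9 µg linuron/l, 11 calls became 24 with DESeq2 (5.34%), 25 with library totals (3.76%), 30 with the fish of the 2 groups alone (8.29%) and 1 to 5 when a fish was left out (0.893 to 1.96%). For 34.4 over 18.1 ng E2/l, 2 calls became 1 with any fish left out (0.262 to 0.66%) and 1 among coat, cargo and tether genes only. For 34.4 over 1.9 ng E2/l, 2 calls became 4 with DESeq2 (4.29%), 17 with library totals (7.49%), 4 with the fish of the 2 groups (6.61%), 1 among coat, cargo and tether genes only and 1 to 2 when a fish was left out (0.388 to 0.835%). Same-numbered fish mostly did not deviate together, so the numbers were not taken as pairs. The exceptions were fish 1 at 18.1 and at 1.9 ng E2/l, closest to control 1 with correlations of 0.416 and 0.263. A replicate block gave 3 calls at 34.4 ng E2/l (2.72%) and 0 in the other comparisons with control (0 to 0.456%). For 34.4 ng E2/l it gave 7 calls over linuron (1.79%), 1 over 18.1 ng E2/l (0.495%) and 1 over 1.9 ng E2/l (1%).

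With a fish left out, the median log2 fold change of the ER-Golgi genes stayed between 0.17 and 0.28 at 34.4 ng E2/l and between -0.44 and -0.30 at 225.9 µg linuron/l. With 3 fish per exposed group, changes of 1 on the log2 scale were mostly below what the main test recovered in simulated counts. Genes at low levels were not among the changed genes of that simulation.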
